A study of Mus musculus with 48 samples.

Results

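Cysteine sulfinic acid decarboxylase (*Csad*), cysteine dioxygenase (*Cdo1*), glutamate decarboxylase like 1 (*Gadl1*) and the taurine transporter (*Slc6a6*) were followed by RNA-seq in cortical tissue from WT and *Chd8* V986*/+ mice. The 4 genes were chosen by their symbols among the 24444 rows of the expression table. All 4 had a value in each of the 48 samples, and in 1 of them *Gadl1* was near the level of a gene with no reads. *Csad* was selected on these values, because it was higher in *Chd8* V986*/+ than in WT mice at every age, so its genotype differences are described here and were not tested. The cortex of a single hemisphere was taken from male C57BL/6J mice, with 6 WT and 6 *Chd8* V986*/+ mice (HET) at embryonic day 14.5 (E14.5) and again after 1, 6 or 12 months of life. HET mice carry tandem stop codons inserted with CRISPR/Cas9 at V986 and E987 of 1 copy of *Chd8*, which encodes a chromatin remodeler, in a line that descends from a single male founder backcrossed to C57BL/6J. WT mice were their littermates, and no treatment of either genotype is named in the sources used here.

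Taurine is an amino sulfonic acid present at high concentration in the brain, where it takes part in the regulation of cell volume and acts on glycine and GABA-A receptors. Cells make it from cysteine. CDO1 oxidizes cysteine to cysteine sulfinic acid, CSAD removes its carboxyl group to give hypotaurine, and hypotaurine is then oxidized to taurine. GADL1 is a homolog of CSAD that acts on related substrates, and SLC6A6 carries taurine into cells together with sodium and chloride. In the brain, CSAD has been described in astrocytes.

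In the mm9 reference, *Csad* (ENSMUSG00000023044.1) lies on the minus strand at chr15:102007429-102019474, with 1 annotated transcript. RefSeq lists 2 promoters of *Csad*, for the build GRCm38.p6, and the 250 bases before each start matched mm9 at a single position. They are shown because *Csad* is the gene that the genotype comparison turns on. Capitals mark matches on either strand to a CCAAT box (CCAAT) or a GC box (GGGCGG, here read as CCGCCC), and both sequences are written 5′ to 3′ along the minus strand.
*Csad* promoter 2, chr15:102019475-102019724, minus strand: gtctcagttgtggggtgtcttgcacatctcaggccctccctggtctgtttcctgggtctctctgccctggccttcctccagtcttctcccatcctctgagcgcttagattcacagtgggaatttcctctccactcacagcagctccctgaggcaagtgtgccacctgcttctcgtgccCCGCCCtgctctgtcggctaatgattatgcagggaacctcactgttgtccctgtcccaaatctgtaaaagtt
*Csad* promoter 1, chr15:102035484-102035733, minus strand: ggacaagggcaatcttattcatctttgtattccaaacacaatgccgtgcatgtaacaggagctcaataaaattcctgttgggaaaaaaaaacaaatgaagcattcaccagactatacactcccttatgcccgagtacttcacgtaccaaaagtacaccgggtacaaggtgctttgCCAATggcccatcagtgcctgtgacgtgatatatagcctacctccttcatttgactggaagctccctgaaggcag
Promoter 2 ends at the start of the transcript annotated in mm9, had a GC content of 55.6% with 4 CpG dinucleotides, and held a GC box that begins at position −72 from the start. Promoter 1 had a GC content of 44.8% with 5 CpG dinucleotides and a CCAAT box that begins at position −75 from its start. Over the 32851 promoters of the table, the median GC content was 52.4% and the median number of CpG dinucleotides was 6, and 32.7% held a GC box and 33.8% a CCAAT box. Neither promoter held the ETS motif CCGGAAGT, found in 2.9% of all promoters, or TATAAA, found in 12.4%, on either strand. The start of promoter 1 lies 1404 bases inside *Zfp740*, which is transcribed from the opposite strand and begins 14604 bases beyond the *Csad* transcript of mm9. The 2216 windows of 50 bases in the *Csad* transcript were found in no other annotated protein-coding gene.

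The deposited table holds variance-stabilizing transformation (VST) values, which are close to log2 of normalized counts for well-expressed genes. The table gives no counts, so the read depth behind each gene is unknown, and precision is given by the SD between 6 mice. Differences are on the log2 scale, where 1 is a doubling, and levels of different genes cannot be ranked because the values are not scaled to transcript length. A gene with no reads sat near 2.14, the most frequent value of the table. Features were called at a Benjamini-Hochberg adjusted *p* (adjp) below 0.1 over all genes tested by limma, a moderated linear model. *Chd8* was lower in HET mice at every age with no overlap, with differences of −0.63, −0.67, −0.64 and −0.54 in order of age, and it was called each time (limma adjp = 0.026, 3.0e-06, 1.1e-07 and 0.0026). At E14.5, *Chd8* was the 1 gene called. It was not called there without WT replicate 2, 4 or 5 or HET replicate 4 (limma adjp between 0.12 and 0.13), with the hindbrain markers described next as a covariate (0.30), with samples centred on their median gene (0.32) or without an intensity trend (0.12), while its difference stayed between −0.63 and −0.58 under these settings. At E14.5, 20 markers of tissue caudal to the forebrain (midbrain, hindbrain, spinal cord), here called hindbrain markers, had a mean between 3.52 and 7.46 in the WT embryos and between 3.60 and 4.88 in the HET embryos. WT replicates 2, 3 and 5 lay above every HET embryo, at 5.45, 5.57 and 7.46, and the E14.5 values of the 4 genes and of the pathway list are also given without these 3 samples. Without them, the *Chd8* difference was −0.60 and was not called (limma adjp = 0.9997).

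*Csad* lay well above the floor at every age, and its mean was higher in HET than in WT mice by between 0.20 and 0.32, or between 1.15-fold and 1.25-fold. At E14.5, the 6 WT embryos, replicates 1 to 6, had *Csad* values of 7.91, 7.69, 7.72, 7.88, 8.01 and 8.13. The 6 HET embryos had values of 8.34, 8.30, 8.11, 8.11, 8.26 and 8.16. Of the 6 WT embryos, 5 lay below every HET embryo, and WT replicate 6 lay within the range of the HET embryos. The mean was 7.89 ± 0.17 (SD, n = 6) in WT and 8.21 ± 0.0997 (SD, n = 6) in HET embryos, a difference of 0.32 with an SE of 0.084.

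At 1 month, WT mice had *Csad* values of 8.47, 8.27, 8.43, 8.36, 8.28 and 8.49. HET mice had values of 8.68, 8.77, 8.81, 8.71, 8.51 and 8.55. Every HET mouse was above every WT mouse, though WT replicate 6 and HET replicate 5 lay close to each other. The means were 8.38 ± 0.094 and 8.67 ± 0.12 (SD, n = 6), a difference of 0.29 with an SE of 0.065. Among the 17221 genes examined at this age, 0.383% had every HET mouse above every WT mouse. At the other ages, where the *Csad* values of the genotypes overlapped, this share was 0.172% (E14.5), 0.226% (6 months) and 0.37% (12 months). Since the genotype difference was the reason for choosing *Csad*, nothing is read from these shares.

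At 6 months, WT mice had *Csad* values of 8.32, 8.32, 8.47, 8.23, 8.30 and 8.50, and HET mice had values of 8.48, 8.59, 8.57, 8.63, 8.69 and 8.40. Of the HET mice, 4 lay above every WT mouse, while HET replicates 1 and 6 lay below the highest WT mouse. The difference of the means, 8.36 ± 0.104 and 8.56 ± 0.104 (SD, n = 6), was 0.20 with an SE of 0.064. At 12 months, WT mice had values of 8.31, 8.12, 8.33, 8.49, 8.38 and 8.22, and HET mice had values of 8.69, 8.65, 8.53, 8.52, 8.46 and 8.61. Only HET replicate 5 lay below the highest WT mouse, replicate 4. The means were 8.31 ± 0.13 and 8.58 ± 0.086 (SD, n = 6), a difference of 0.27 with an SE of 0.071.

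**Figure D1:**
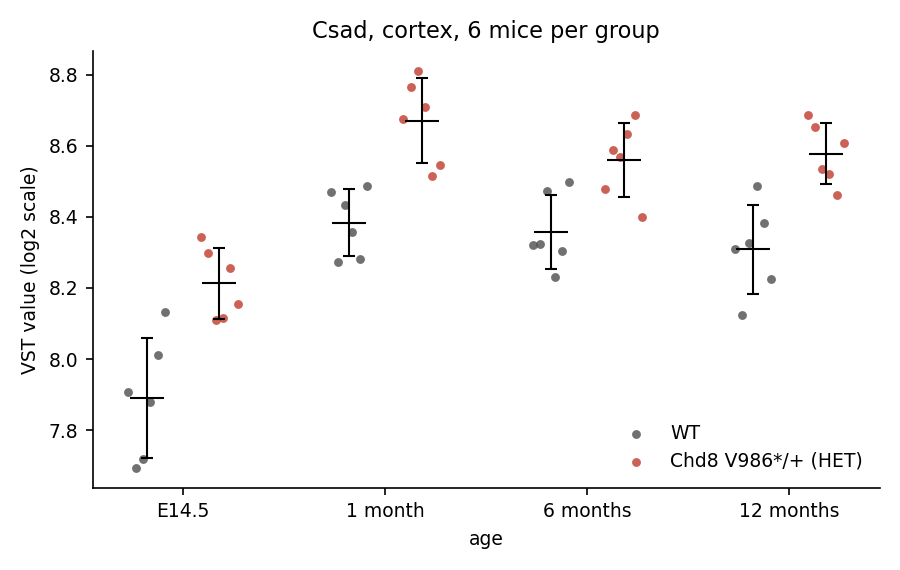
*Csad* VST values (log2 scale, y axis) in the cortex of single mice by age (x axis), 6 WT mice in grey and 6 HET mice in red per age, with the mean and SD as a horizontal line and bar. The genotypes do not overlap at 1 month, and at the other ages the lowest HET mouse falls below the highest WT mouse.

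Ordered by their means, the 8 groups ran from WT embryos to HET mice at 1 month. WT embryos were lowest at 7.89, and HET embryos followed at 8.21. The postnatal WT groups lay at 8.31, 8.36 and 8.38, closer to each other than their SDs of 0.094 to 0.13, and the lowest of them was also within an SD of the HET embryos. The postnatal HET groups lay at 8.56, 8.58 and 8.67, with SDs of 0.086 to 0.12, and the HET means at 6 and 12 months differed by less than their spread.

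The size of the *Csad* difference varied between the sets of replicates. Replicates 1 to 3 and replicates 4 to 6 had equal means over the whole table for every gene, so a difference between these sets had been removed before deposit, and what the sets were is not given in the sources used here. Within replicates 1 to 3, the *Csad* difference was 0.48 in embryos and 0.36, 0.17 and 0.37 in mice of 1, 6 and 12 months, with SEs between 0.060 and 0.098 and no overlap at any of the 4 ages. Within replicates 4 to 6, it was 0.17, 0.21, 0.23 and 0.17, with SEs between 0.085 and 0.12, and the genotypes overlapped except at 1 month. The share of all genes without overlap within such small sets was not computed, so nothing is read from these overlaps. HET was higher in both sets at every age, a direction largely fixed by the choice of *Csad* on these same mice.

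The means of several marker lists differed between the genotypes, with no marker called. The ranges of the genotypes overlapped for every list and age but the oligodendrocyte markers at 6 months. Without the 3 WT embryos high in hindbrain markers, the *Csad* difference at E14.5 was 0.24, and with the mean of these markers as a covariate it was 0.28. The 10 astrocyte markers averaged 12.54 in WT and 12.67 in HET mice at 6 months, with 10 of 10 higher in HET mice and overlapping ranges of 12.44 to 12.74 and 12.51 to 12.82, and none called. With their mean as a covariate, the 6-month difference in *Csad* was 0.12. At the other ages, the astrocyte mean differed by −0.080, −0.022 and −0.024 with ranges that overlapped, and the *Csad* difference with it as a covariate was 0.29, 0.28 and 0.27. The oligodendrocyte markers were lower in HET mice at 6 months, with 0 of 10 higher and means of 12.07 and 11.87, and ranges that did not overlap. At E14.5, radial glia and progenitor markers were higher in HET embryos in 10 of 10 cases (means of 11.91 and 12.01) and ganglionic eminence markers in 8 of 8 (9.90 and 10.09), and neuron markers in 0 of 8 (12.87 and 12.74). At 12 months, radial glia and progenitor markers were higher in HET mice in 7 of 10 cases. Their means were 7.56 in WT and 7.90 in HET mice, with overlapping ranges of 7.48 to 7.61 and 7.55 to 8.46. Meningeal fibroblast markers at this age were higher in HET mice in 9 of 10 cases (7.39 and 7.68). Choroid plexus markers were higher in 8 of 8 cases at 1 month and in 0 of 8 at 6 months, with wide overlap. No share over all genes is given beside these counts or the lack of overlap, so nothing is read from them. Whether any of these lists had a part in the *Csad* values was not tested. A covariate that itself shifts with genotype cannot decide it. In whole cortex, a change in the number of cells cannot be told apart from a change in RNA per cell.

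*Zfp740* and *Soat2* are the nearest annotated protein-coding genes on either side of *Csad*, and neither was called. *Zfp740*, which encodes a zinc finger protein, differed between HET and WT mice by 0.0062 ± 0.084 (SE) in embryos (−0.065 without the 3 WT embryos high in hindbrain markers) and then by −0.043 ± 0.040, −0.040 ± 0.041 and 0.091 ± 0.060 in mice of 1, 6 and 12 months (limma adjp between 0.56 and 0.997). *Soat2*, a cholesterol esterifying enzyme, lay near the floor at every age, with group means between 2.55 and 3.04, and was below the limit for testing at 6 months. The sources differ on whether the library kit kept strand, so reads from the stretch where promoter 1 of *Csad* starts inside *Zfp740* may not be told apart.

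*Cdo1* (ENSMUSG00000033022.7), which makes the substrate of CSAD, did not differ detectably between the genotypes at any age. At 1 month, WT mice ranged from 9.19 to 9.47 and HET mice from 9.20 to 9.45, and the means of 9.31 and 9.34 differed by 0.027 (95% interval −0.091 to 0.15). At 6 months, the means of 9.14 and 9.16 differed by 0.021 (−0.15 to 0.19), and at 12 months the HET mean of 9.04 and the WT mean of 9.16 differed by −0.12 (−0.32 to 0.071). At E14.5, HET embryos were at 9.85 ± 0.073 and WT embryos at 9.96 ± 0.20 (SD, n = 6), a difference of −0.11 (−0.28 to 0.064). The limma adjp values were 0.98, 0.93, 0.98 and 0.60 from E14.5 to 12 months. In the same order, called genes made up 0.00593%, 0.139%, 0.0927% and 0.0463% of all genes tested (1, 24, 16 and 8 genes), and these shares varied with the samples used. At 12 months, 251 genes were called without WT replicate 3, and at 1 month 4 without WT replicate 6, 4 without HET replicate 4 and 3 without HET replicate 5. At E14.5, 0 genes were called without WT replicate 2, 4 or 5 or HET replicate 4.

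**Figure D2:**
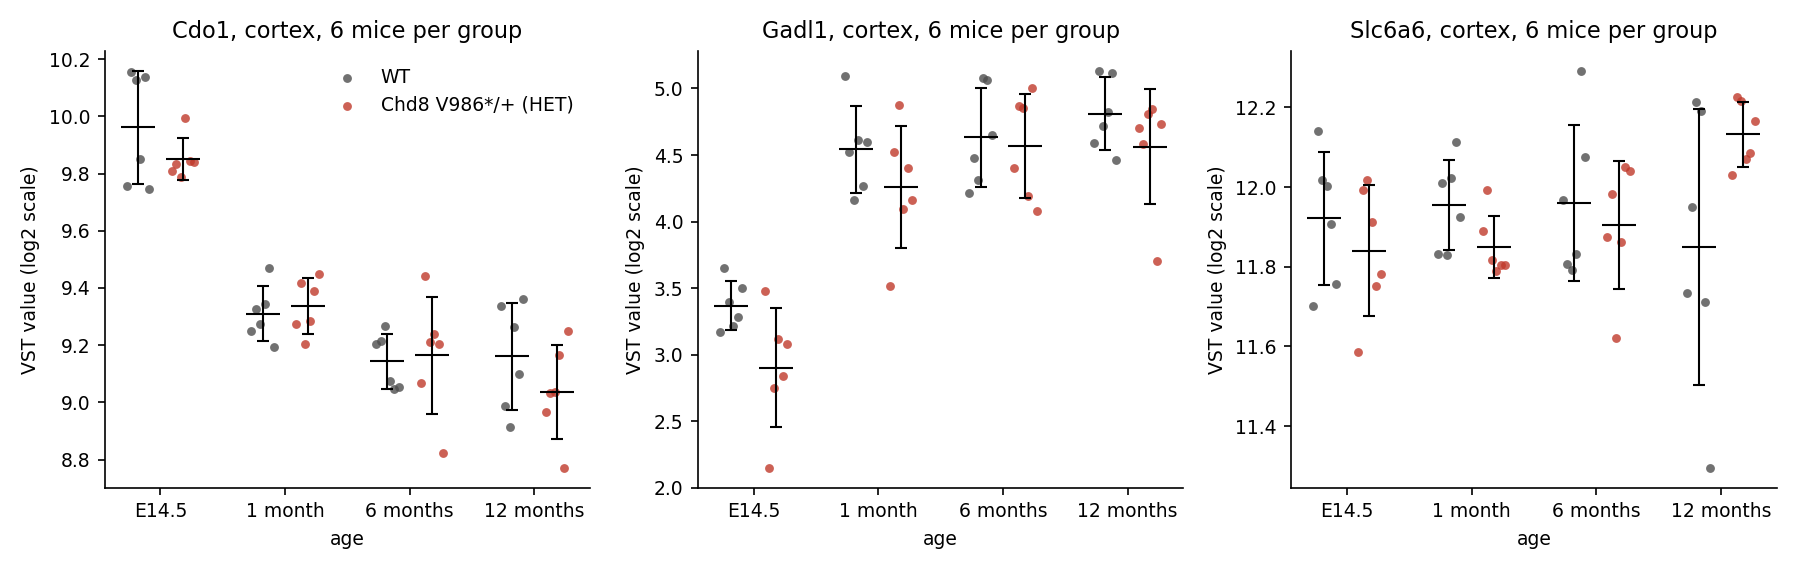
VST values (log2 scale, y axes) of *Cdo1*, *Gadl1* and *Slc6a6* in single mice by age (x axes), 6 WT (grey) and 6 HET (red) mice per age, with the mean and SD. *Cdo1* falls and *Gadl1* rises after E14.5, *Slc6a6* stays near 12, and the genotypes overlap in every panel and age.

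The WT embryos split into a high and a low set for *Cdo1*. WT replicates 1 to 6 had *Cdo1* values of 9.76, 10.15, 10.13, 9.85, 10.14 and 9.75, and HET replicates 1 to 6 had values of 9.81, 9.83, 9.79, 9.99, 9.85 and 9.84. The 3 highest, WT replicates 2, 3 and 5, were also the 3 embryos highest in hindbrain markers. Of the 20 hindbrain markers, 19 were tested at E14.5, 0 of 19 were higher in HET embryos, none was called, and *Hoxa5* was near the floor. Once the mean of these markers entered the fit, the *Cdo1* difference was 0.0041, and without the 3 embryos it was 0.067, with HET above WT. *Csad* in these 3 embryos was 7.69, 7.72 and 8.01, against 7.91, 7.88 and 8.13 in the other WT embryos, so that replicates 2 and 3 were the lowest of all 12 embryos.

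**Figure D3:**
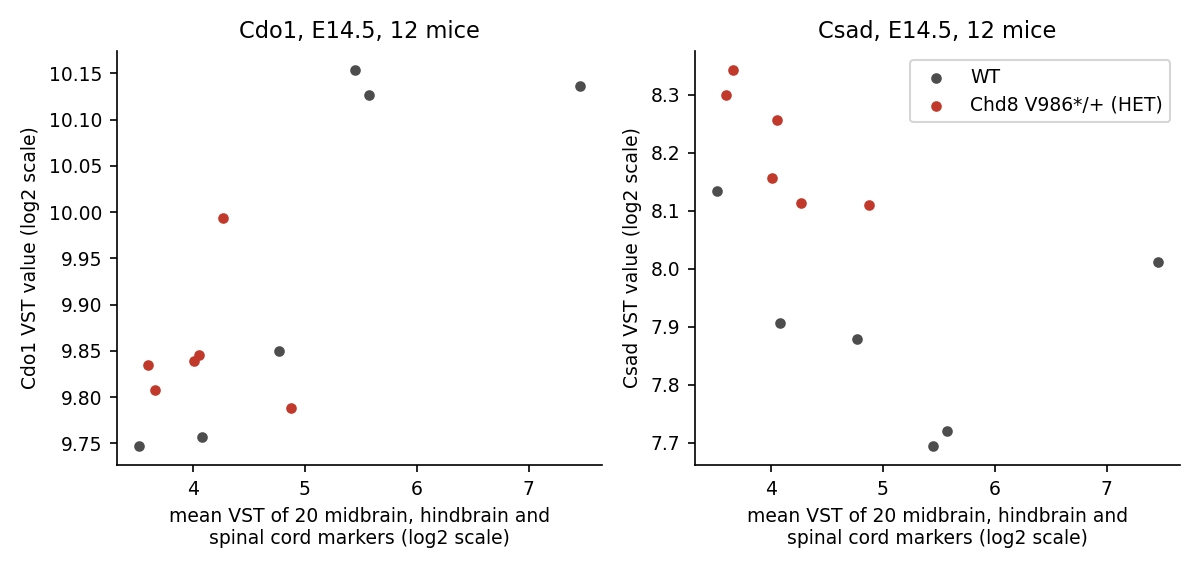
*Cdo1* (left) and *Csad* (right) VST values (log2 scale, y axes) against the mean VST value of the 20 hindbrain markers (x axes) in the 12 embryos at E14.5, WT in grey and HET in red. The 3 WT embryos with marker means of 5.45 to 7.46 have the highest *Cdo1* values, and *Csad* is lower in 5 of 6 WT embryos than in every HET embryo.

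*Gadl1* (ENSMUSG00000056880.5; chr9:115817682-115985294, plus strand, 4 transcripts in mm9) was weakly expressed and lower on average in HET mice at all 4 ages, without a call. At E14.5, WT embryos had values of 3.17, 3.65, 3.39, 3.21, 3.28 and 3.50, and HET embryos had values of 3.48, 2.15, 2.75, 3.12, 2.84 and 3.08. Of the HET embryos, 5 lay below every WT embryo, and HET replicate 2 was at the floor. The difference was −0.47 ± 0.20 (SE; 95% interval −0.90 to −0.036; limma adjp = 0.98), and −0.39 without the 3 WT embryos high in hindbrain markers. At 1, 6 and 12 months, it was −0.28 ± 0.22, −0.066 ± 0.20 and −0.25 ± 0.20 (SE), with limma adjp of 0.75, 0.97 and 0.63. WT mice had medians of 4.56, 4.56 and 4.77 at these ages. HET mice had medians of 4.28, 4.63 and 4.72, and the genotypes overlapped at each of these ages. HET replicate 5 at 12 months, at 3.71, was well below the other HET mice, which lay between 4.58 and 4.85, and without it the 12-month difference was −0.074. Of the 3981 windows of 50 bases in *Gadl1* transcripts, 0.78% also occurred in 6 other genes, so nearly all of its sequence is its own.

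*Slc6a6* (ENSMUSG00000030096.7; chr6:91634061-91709057, plus strand), which imports taurine, lay far above the floor and was called at no age. The difference was −0.081 ± 0.088 in embryos, −0.11 ± 0.051 at 1 month and −0.055 ± 0.085 at 6 months (SE), and none of these passed (limma adjp = 0.98, 0.57 and 0.92). Values before 12 months lay between 11.70 and 12.29 in WT and between 11.59 and 12.05 in HET mice, and without the 3 WT embryos high in hindbrain markers the E14.5 difference was 0.020. At 12 months, the direction was the opposite. WT mice had values of 11.74, 11.95, 12.21, 12.19, 11.71 and 11.30, and HET mice had values of 12.03, 12.23, 12.22, 12.07, 12.09 and 12.17. WT mice spread over a wider range than HET mice, and 4 of them lay below every HET mouse. The difference at 12 months was 0.28 ± 0.12 (SE; 95% interval 0.030 to 0.53) and did not pass adjustment (limma adjp = 0.38), and without WT replicate 6, the lowest mouse, it was 0.17.

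**Figure D4:**
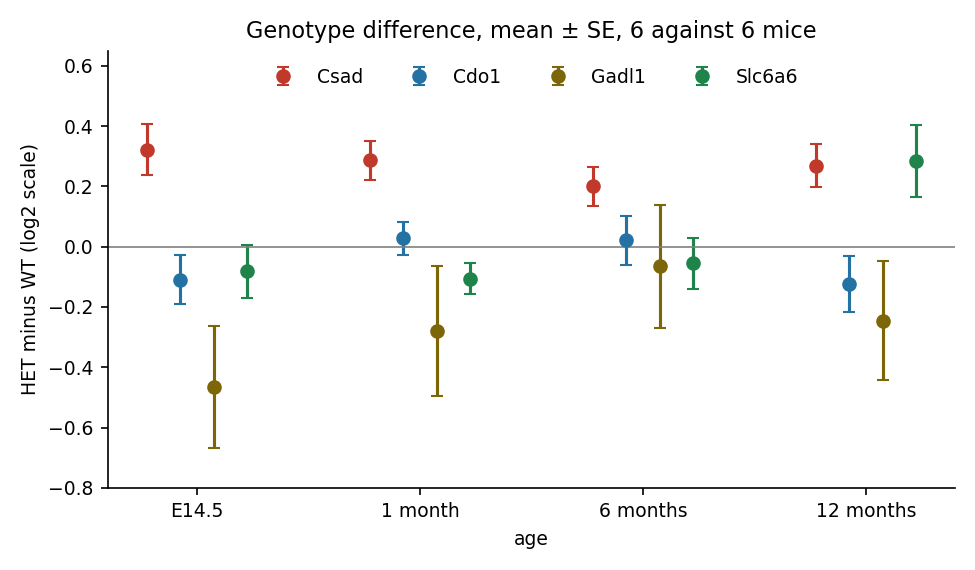
Difference between HET and WT mice (log2 scale, y axis) in *Csad*, *Cdo1*, *Gadl1* and *Slc6a6* by age (x axis), shown as the difference of the means with its limma SE, 6 against 6 mice. *Csad* lies between 0.20 and 0.32 at every age, *Gadl1* is below 0 at every age, and *Slc6a6* is above 0 at 12 months alone.

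The neighbours of these 3 genes gave no call either. *Atg12*, which acts in autophagy and lies beside *Cdo1*, differed by −0.22 at 12 months (limma adjp = 0.39), and *Eif1a*, a translation initiation factor on its other side, differed by at most 0.047 at any age. *Tgfbr2*, a TGF-beta receptor beside *Gadl1*, differed by −0.20 at 1 month (limma adjp = 0.67), and the neighbour on its other side was not analysed here. *Grip2*, a scaffold protein beside *Slc6a6*, was higher in HET mice by 0.38 at 12 months (limma adjp = 0.25). *Lsm3*, an RNA-processing factor on the other side of *Slc6a6*, was higher in HET embryos by 0.12 at E14.5 (limma adjp = 0.98). Without the 3 WT embryos high in hindbrain markers, the *Lsm3* difference was −0.023. At 12 months, WT replicate 6 had the highest *Atg12* value (11.39) and the lowest *Grip2* value (8.93) of all mice of that age. Differences of these genes without this mouse are not given here.

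A list of 49 genes of taurine and cysteine metabolism placed the 4 genes in their pathway. It covered taurine synthesis, transport and use, cysteine supply, other fates of cysteine, the glutamate decarboxylases and receptor subunits that respond to taurine. Leaving out *Csad*, 0 of 47 genes tested at E14.5 and 0 of 46 tested at each later age were called between genotypes by limma. The list was chosen with earlier results known, so its counts are a description. The lowest adjp in the list was 0.88, 0.37, 0.39 and 0.28 in order of age. At an unadjusted limma p below 0.05, there were 3, 8, 4 and 5 genes of the list, against 4.56%, 8.8%, 7.59% and 11.6% of all genes tested. The median difference over the list was 0.0086, −0.015, 0.017 and −0.017, against medians between −0.0029 and 0.0046 over all genes. At 1 month, 21 list genes were higher and 25 lower in HET mice, and at E14.5 the counts were 26 and 21. Without the 3 WT embryos high in hindbrain markers, the E14.5 list had 0 limma calls and 3 genes at an unadjusted limma p below 0.05. It had a median of 0.018, with 29 genes higher and 18 lower. That smaller fit called 0 of all genes and did not call *Chd8*, so nothing is read from its 0 list calls.

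*Csad* and *Gadl1* rose and *Cdo1* fell between E14.5 and 1 month in both genotypes. In WT mice, *Csad* rose by 0.49 ± 0.077 (SE; limma adjp = 1.6e-06) and *Gadl1* by 1.17 ± 0.18 (adjp = 7.8e-07), while *Cdo1* fell by 0.65 ± 0.084 (adjp = 6.9e-08). In HET mice, *Csad* rose by 0.46 ± 0.063 (limma adjp = 2.1e-07) and *Gadl1* by 1.36 ± 0.24 (adjp = 8.6e-06), while *Cdo1* fell by 0.51 ± 0.079 (adjp = 1.2e-06). In both genotypes, the values at E14.5 and 1 month did not overlap for any of these 3 genes. The share of all genes without overlap at this step was not computed, so this is not read as particular to them. *Cdo1*, the first enzyme of taurine synthesis, had its highest mean in embryos, where *Csad*, the second, had its lowest. *Slc6a6* changed by 0.034 ± 0.12 in WT and 0.0093 ± 0.069 in HET mice (SE; limma adjp = 0.79 and 0.91).

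Such changes were common, since limma called 84% of 18006 genes in WT and 84.8% of 17968 genes in HET mice between E14.5 and 1 month. The cell makeup of the samples also differed between these ages. In WT mice, the mean of the astrocyte markers rose from 8.56 to 12.73 and that of the oligodendrocyte markers from 6.56 to 12.83, while that of the radial glia and progenitor markers went from 11.91 to 8.20. Their part in the changes of the 4 genes was not tested. Centring each sample on its median gene moved the median change of all genes in WT from 0.032 to −0.19, and quantile normalization moved it to −0.099. With centring, the rise in *Csad* was 0.28 in WT and 0.23 in HET mice and was still called, and *Slc6a6*, not called as deposited, changed by −0.22 in HET mice (limma adjp = 0.0054) and, with quantile normalization, by −0.17 (adjp = 0.025), while in WT mice it was not called under either. Without the 3 WT embryos high in hindbrain markers, *Csad* rose by 0.41, *Gadl1* rose by 1.25 and *Cdo1* fell by 0.47 in WT mice, and all 3 were called.

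Across the list, 41 of 48 genes tested were called between E14.5 and 1 month in WT mice, 32 up and 9 down, and 39 of 48 in HET mice, 30 up and 9 down. The median change over the list was 0.70 in WT and 0.64 in HET mice, against 0.032 and 0.034 over all genes. The median size of the change, without its sign, was 0.74 and 0.77, close to 0.76 and 0.77 over all genes. Among all genes called, 7703 rose and 7414 fell in WT and 7771 and 7468 in HET mice, and with centring 6402 rose and 8796 fell in WT mice. Without the 3 WT embryos high in hindbrain markers, 39 list genes were called in WT mice, 31 up and 8 down, with a median of 0.66. Among the 7 genes of taurine synthesis, 5 rose, 1 fell and 1 was not called in WT mice. *Got1*, an aspartate aminotransferase that can divert cysteine sulfinic acid away from taurine, rose by 2.60, and its mitochondrial counterpart *Got2* rose by 0.73. Among the 8 transport genes, 3 rose and 3 fell. *Slc36a1*, a proton-coupled amino acid transporter, rose by 1.91, *Lrrc8b* and *Lrrc8c*, subunits of volume-regulated anion channels, by 1.01 and 0.77, and *Slc6a13*, a GABA and taurine transporter, fell by 0.73.

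All 6 genes of taurine use were called as rising in WT mice, and 4 of them in HET mice. In HET mice, *Baat* and *Ggt5* also rose, by 0.15 and 0.078, without a call. Without the 3 WT embryos high in hindbrain markers, *Ggt5* rose by 0.14 in WT mice and was not called (limma adjp = 0.46). *Pter*, which hydrolyses N-acetyltaurine, rose by 3.79, *Gtpbp3*, which acts in taurine modification of mitochondrial tRNA, by 0.73, *Ggt1*, a gamma-glutamyltransferase, by 0.70 and *Baat*, which conjugates bile acids to taurine, by 0.39 (0.61 without the 3 WT embryos). Among 11 genes of cysteine supply tested, 6 rose and 3 fell. The cystine transporter *Slc7a11* rose by 2.41, the cysteine and glutamate transporter *Slc1a1* by 2.37, the transsulfuration enzyme *Cbs* by 2.33 and *Mat2b*, a subunit of methionine adenosyltransferase, by 1.92. Of 8 genes for other fates of cysteine, 5 rose and 1 fell, with *Tst*, a thiosulfate sulfurtransferase, up by 2.04, *Sqrdl*, a sulfide oxidizing enzyme, up by 1.74, *Gss*, a glutathione synthesis enzyme, up by 0.96 and *Mpst*, a sulfurtransferase, down by 0.75. *Gad1* and *Gad2*, which make GABA from glutamate, rose by 2.23 and 0.86.

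Of the 6 receptor subunits, 5 rose and 1 fell in both genotypes, and *Gabrd* had the largest change of the list. *Gabrd* and *Gabra4*, GABA-A receptor subunits of extrasynaptic receptors, rose by 6.15 and 3.58 in WT mice, and the glycine receptor subunits *Glrb* and *Glra3* by 3.69 and 3.15. The median over the 6 subunits was 3.36 in WT and 3.20 in HET mice.

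**Figure D5:**
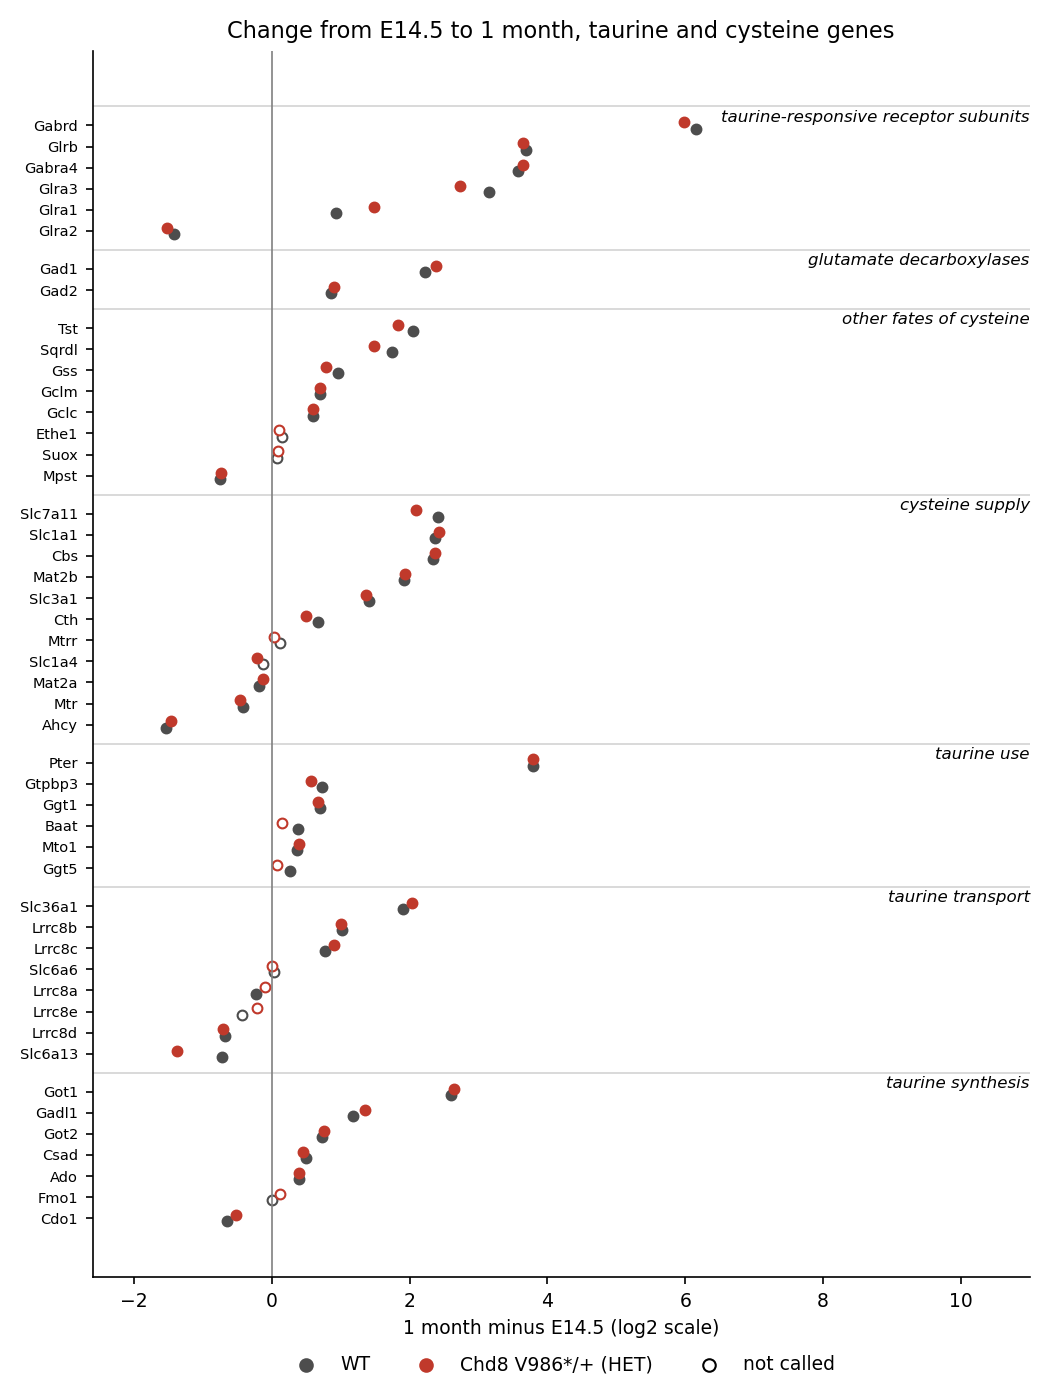
Change from E14.5 to 1 month (log2 scale, x axis) in the 48 tested genes of the taurine and cysteine list, grouped by role, in WT (grey) and HET (red) mice, with open circles for genes that were not called. Most genes lie to the right of 0 in both genotypes, *Cdo1* lies to the left and *Slc6a6* at 0.

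After 1 month, the 4 genes changed little. From 1 to 6 months, limma called 14.2% of all genes in WT and 21% in HET mice, and none of the 4. *Csad* changed by −0.026 ± 0.077 in WT and −0.11 ± 0.063 in HET mice (SE; limma adjp = 0.88 and 0.26), and *Cdo1* by −0.17 ± 0.084 and −0.17 ± 0.079 (adjp = 0.24 and 0.15). The fall of *Cdo1* in HET mice was called when HET replicate 2 at 6 months was left out (−0.23, limma adjp = 0.049). *Gadl1* changed by 0.090 ± 0.18 and 0.30 ± 0.24, and *Slc6a6* by 0.0049 ± 0.12 and 0.055 ± 0.069 (SE). In the whole list, 9 genes were called in WT, 5 up and 4 down, and 10 in HET mice, 6 up and 4 down. In taurine synthesis, *Fmo1*, which oxidizes hypotaurine, fell by 0.62 in WT and 0.47 in HET mice and *Got1* rose by 0.21 and 0.17. In glutathione synthesis, *Gss* fell by 0.27 and 0.44 while *Gclc*, the catalytic subunit of its first enzyme, rose by 0.16 and 0.12, and *Gad1* rose by 0.30 and 0.38. With only the 12 mice of the ages compared, the WT count was 16, *Cdo1* was among them (limma adjp = 0.054), and the HET count was 15. From 6 to 12 months, 0.0111% of all genes were called in WT and 1.81% in HET mice, and 0 list genes in either by limma. Of all genes called in HET mice, 107 rose and 218 fell, against 61 and 614 once each sample was centred on its median gene. At an unadjusted limma p below 0.05, there were 2 list genes in WT and 6 in HET mice at this step, of 48 tested. Over all genes tested, this share was 7.38% in WT and 13.2% in HET mice. *Slc6a6* had the lowest adjp of the list in HET mice, with a change of 0.23 ± 0.069 (SE; limma adjp = 0.12), against −0.11 ± 0.12 in WT mice (adjp = 0.81). It was called when HET replicate 5 or 6 at 6 months (limma adjp = 0.077 and 0.094) or HET replicate 1 at E14.5 (0.052) was left out.

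The genotype differences of *Cdo1*, *Gadl1* and *Slc6a6* were also compared between 12 months and each younger age. For *Slc6a6*, the 12-month difference exceeded that at E14.5 by 0.36, at 1 month by 0.39 and at 6 months by 0.34, each with an SE of 0.14, and none passed (limma adjp = 0.31, 0.28 and 0.49). For *Cdo1* and *Gadl1*, these contrasts were between −0.18 and 0.22 (limma adjp of at least 0.66). Called genes made up 0.0671%, 0.0279% and 0.0615% of the 17890 genes tested, and 0 of 47 list genes were among them. At an unadjusted limma p below 0.05, there were 7, 7 and 3 list genes, against 11.4%, 11% and 8.57% of all genes tested. For *Csad*, these contrasts were −0.054 against E14.5, −0.018 against 1 month and 0.068 against 6 months, each with an SE of 0.097 and given without a test.

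Among the 17310 genes expressed on average over the 48 samples, the 5 most like *Csad* by Pearson correlation were *Rmdn2* (r = 0.84), *Crlf2* (0.83), *Mtm1* (0.82), *4933404O12Rik* (0.82) and *Polg* (0.82). The samples share the step between E14.5 and later ages, which shapes these values, and over the 36 postnatal samples the same genes had r between 0.46 and 0.67. Taking Spearman correlation, or the postnatal samples alone, kept 2 of these 5 genes among the nearest 5. Being like *Csad*, which was selected for its genotype difference, these genes give no independent test of that difference. *Crlf2*, a cytokine receptor subunit, had HET means above WT means by 0.54, 0.46, 0.43 and 0.26 in order of age. *Polg*, the mitochondrial DNA polymerase, rose after E14.5 as *Csad* did but differed between genotypes by at most 0.0997. After the mean of each group was subtracted, the nearest genes were *Ccdc18* (r = 0.66), *Eef2kmt* (0.61), *Chaf1b* (0.57), *Cenpm* (0.56) and *Wdr31* (0.56), of which 3 stayed among the nearest 5 with Spearman correlation and 3 over the postnatal samples. Among the 4 genes, the r of *Csad* after this subtraction was −0.071 with *Cdo1*, 0.14 with *Gadl1* and −0.11 with *Slc6a6*. Before it, *Csad* and *Cdo1* had an r of −0.66 over the 48 samples, which share the opposite steps of both genes after E14.5.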

How the data were processed

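The table deposited by the authors holds VST values on a log2 scale for 24444 genes in 48 samples. Per the labels' processing notes and the paper's methods, the authors used STAR 2.5.2b, mm9, Salmon 0.11.3 and DESeq2 (listed as DESeq 1.22.2), with batch corrected in the model. The labels name a TruSeq kit and the methods a stranded KAPA kit. Read depth was not used here.

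The genotype fits held the 12 mice of an age, tested genes with a mean at least 0.5 above the floor of 2.1433, and used limma 3.58.1 (R 4.3.3) with an intensity trend. Age steps were fitted in the 24 mice of a genotype and differences of genotype effects in all 48, fits that share 1 spread over ages of unequal spread. Scripts were checked on simulated data.

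Members and lists were chosen with earlier results of these data known. Named genes are the members, *Chd8*, neighbours, called list genes with the largest WT change from E14.5 to 1 month (up to 4 per group) and the 5 genes most like *Csad* by each measure. List genes named for the step from 1 to 6 months were chosen after seeing their values, as were the alternative without 3 WT embryos and the alternatives for *Chd8*. Other alternatives were filters, scalings, variance priors, covariates, a replicate block, other sets of samples, a threshold of 0.05 and leaving out each sample. Python 3.11.15, numpy 2.4.6, pandas 2.3.3 and matplotlib 3.10.9 were used.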

Additional observations from a re-analysis of the deposited data

Results flagged for a closer look

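In 32 groups of 6 mice (the 4 genes in 8 groups), 2 had a mouse set apart from the other 5 by more of the range of the group than the critical value of Dixon's test, where chance gives about 1 in 20 groups. The highest *Cdo1* value in HET embryos, replicate 4 at 9.99, was apart from the next by 0.723 of the range. The lowest *Gadl1* value in HET mice at 12 months, replicate 5 at 3.71, was apart by 0.768 of the range. Neither *Cdo1*, *Gadl1* nor *Slc6a6* was called for a difference of genotype effects between 12 months and a younger age.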

How the results depend on the processing

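The *Csad* difference between genotypes kept its direction under every setting run, and ranged from 0.28 to 0.37 at E14.5, 0.26 to 0.32 at 1 month, 0.18 to 0.23 at 6 months and 0.23 to 0.30 at 12 months when single samples were left out. Because *Csad* was selected for this direction in the same samples, the kept direction is no independent support. The calls of *Csad*, *Cdo1* and *Gadl1* between E14.5 and 1 month held under every setting run. Same-numbered WT and HET samples had a mean correlation of 0.23 at E14.5 and 0.018, 0.045 and −0.034 later. At E14.5, r reached 0.58, and 4 of 6 WT samples correlated best with the HET sample of their own number. At 1, 6 and 12 months, 1, 1 and 0 of 6 did so. At no age did every pair exceed an r of 0.1, so the numbers are not treated as pairs. With the replicate number as a block, the *Csad* differences were 0.32, 0.29, 0.20 and 0.27, and no call of a member changed, while the genes called overall between genotypes went from 1, 24, 16 and 8 to 2, 13, 30 and 2 in order of age. In a single fit of 48 samples they numbered 120, 37, 16 and 520. With the replicate block, *Chd8* at E14.5 had a limma adjp of 0.00027.

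Genotype differences of uncalled genes changed sign as follows. *Cdo1* was 0.0041 at E14.5 with the hindbrain markers as a covariate and 0.067 without the 3 WT embryos, where *Slc6a6* was 0.020, and *Cdo1* at 6 months was −0.032 with the hindbrain and −0.095 with the astrocyte markers as a covariate. With single samples left out, the 6-month differences ranged from −0.035 to 0.089 for *Cdo1*, −0.15 to 0.032 for *Gadl1* and −0.089 to 0.011 for *Slc6a6*. The *Gadl1* effect at 12 months against 1 month was −0.043 with quantile normalization and −0.021 with centring.

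Among age steps, *Slc6a6* from E14.5 to 1 month was −0.14 and −0.17 in WT and −0.17 and −0.22 in HET mice with quantile normalization and centring, and *Csad* from 6 to 12 months was −0.046 in HET mice with centring. With single samples left out, *Slc6a6* ranged from −0.0095 to 0.078 in WT and −0.041 to 0.045 in HET mice at the first step and from −0.061 to 0.039 in WT at the second. *Gadl1* ranged from −7.6e-05 to 0.20 (WT, 1 to 6 months) and −0.10 to 0.17 (HET, 6 to 12 months), *Cdo1* from −0.023 to 0.066 (WT, 6 to 12 months) and *Csad* from −0.013 to 0.044 (HET, 6 to 12 months).

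Counts of called pathway genes, with single samples left out, ranged from 40 to 43 (WT) and 38 to 41 (HET) from E14.5 to 1 month and from 6 to 11 and 8 to 12 from 1 to 6 months. The E14.5 genotype count was 1 in a single fit of 48 samples, and the count of effects at 12 months against E14.5 was 1 with centring. From 1 to 6 months, the WT count was 16 with only the 12 mice compared. From 6 to 12 months, the HET count was 1 with quantile normalization, centring or only the 12 mice, and 0 to 2 with single samples left out. The causes were not tested. The table gives no depth, so small differences of weakly expressed *Gadl1* cannot be set against counting error.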

Other observations

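Values of some list genes, chosen after they were seen, stood out without a call. *Gss* was higher in HET embryos by 0.32, with 5 of 6 above every WT embryo (limma adjp = 0.88). Without the 3 WT embryos high in hindbrain markers, this difference was 0.31. The contrast of its genotype effect at 12 months against E14.5 was −0.45 (limma adjp = 0.14). *Mtrr*, which keeps methionine synthase active, was higher in HET mice by 0.23, 0.14 and 0.25 at E14.5, 1 month and 6 months, with 6 of 6 HET mice at each of these ages above the WT mean, and differed by −0.020 at 12 months (limma adjp = 0.88, 0.48, 0.39 and 0.93), and without the 3 WT embryos high in hindbrain markers the E14.5 difference was 0.18. *Mpst* was higher at 1 month by 0.16 with every HET mouse above every WT mouse (limma adjp = 0.37), and by 0.20 at 12 months (adjp = 0.34). Of the 17221 genes examined at 1 month, 0.383% had every HET mouse above every WT mouse. No share over all genes is given for the counts of *Gss* and *Mtrr*, and nothing is read from the counts of these 3 genes. *Slc6a13*, which meningeal cells also express, differed between HET and WT mice by −0.67 at 1 month (limma adjp = 0.48), where the 10 meningeal fibroblast markers had means of 8.17 in WT and 7.71 in HET mice, with 0 of 10 higher in HET mice, 0 called and overlapping ranges. At 6 and 12 months, *Slc6a13* differed the other way, by 0.36 and 0.20 (limma adjp = 0.76 and 0.75), and 9 of 10 meningeal markers were higher in HET mice at both ages. Their part in the *Slc6a13* value was not tested.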
